A study of Homo sapiens with 12 samples.

Results

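Transcripts of 10 enzymes that make cysteine from homocysteine (transsulfuration) or that build, recycle, use or break down glutathione were followed in 2 human prostate cancer cell lines treated with palbociclib. The genes were CTH, CBS, CHAC1, GCLC, GCLM, GSS, GSR, GPX1, GPX4 and GGCT, which are 10 of the 56747 genes listed in both count tables. They were picked because CTH and CHAC1 had changed in opposite directions in the 2 lines after palbociclib, so the response of these 10 genes to palbociclib is described here without a test. Palbociclib is an inhibitor of the cell cycle kinases CDK4 and CDK6, and the controls received its solvent, dimethyl sulfoxide (DMSO). Dose and duration are not stated in what was used here. The labels name 4 groups of 3 RNA sequencing libraries, namely palbociclib and DMSO in C42 and the same 2 treatments in Du145. The medium for all was RPMI-1640, to which 10% fetal bovine serum was added, and no other allele or agent is named for any group. C42, usually written C4-2, is a hormone-refractory derivative of the luminal line LNCaP, and Du145 is an RB1-deficient line from a brain metastasis. Whether replicates were separate cultures is not stated, so the p-values below measure the spread between libraries, which may be technical.

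Transsulfuration takes homocysteine from the methionine cycle through cystathionine to cysteine, with CBS making cystathionine and CTH cleaving it. Cysteine, made this way or imported as cystine, limits the synthesis of glutathione, the main small thiol of the cell, which glutathione peroxidases spend to reduce peroxides. In prostate cancer cells, as in other tumour cells, this pathway is known for its part in the defence against oxidative damage and ferroptosis. Several of its genes are textbook targets of the transcription factor ATF4, which responds to amino acid shortage, and others are targets of NRF2, which responds to electrophiles.

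One column of the C42 table, DMSO replicate 3, held 0 for every gene and was not used. This left 11 libraries, and 3 palbociclib libraries were set against 2 DMSO libraries for C42. Total counts were 2608851 to 3489659 per library labelled C42 and 16108999 to 16674393 per library labelled Du145. Chi-square per degree of freedom between libraries of a group, which is near 1 where counting noise alone separates them, was 1.137 to 1.183 in C42. For Du145 replicates 1 and 2 it was 2.359 and 2.366, but 5.413 to 8.338 in the pairs with a replicate 3, and values without both of these libraries are given below for the counts and for CTH and CHAC1. Markers went against the C42 label. KLK3, KLK2, ACP3 and FOLH1, which define luminal prostate cells, had 0 counts in every library labelled C42, and the 7 mesenchymal markers summed to 26600 to 29100 CPM (counts scaled by the total of the library), against 343 to 402 in Du145. Most of the sum in libraries labelled C42 was FN1, at 18800 to 20900 CPM. There VIM, SPARC, COL6A3 and TGFBI lay between 1290 and 2620 CPM, COL1A1 at 161 to 277 CPM, and COL3A1 reached at most 1.66 CPM. The libraries are therefore called "labelled C42". The summed epithelial markers were lower with palbociclib in both lines. They lay at 412 to 447 CPM against 1050 in libraries labelled C42 and at 2070 to 2210 against 3220 to 3560 in Du145. These sums were mostly keratins, namely KRT8 and KRT18 (medians 366 and 74.7 CPM) in libraries labelled C42, and KRT8, KRT7 and KRT18 in Du145. EPCAM and CDH1 reached at most 2.3 and 0.767 CPM in libraries labelled C42 and 1.16 and 2.17 CPM in Du145. KRT7 reached at most 2.96 CPM in libraries labelled C42, and 1 of the 6 markers, KRT5, was at 0 throughout. The 5 leukocyte markers reached at most 1.99 CPM in libraries labelled C42 and 4.25 CPM in Du145.

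The bases just upstream of the start site are shown for 3 of the genes whose response below turns with the line, as a view of their promoters. CBS, which turned too, has several RefSeq windows and is not printed. RefSeq windows on GRCh38.p14 were found for 7 of the 10 genes, and the 250 bases before the RefSeq start are printed 5′ to 3′ on the gene's strand, with matches to searched motifs in capitals. The windows lie at chr1:70411018-70411267 (plus strand) for CTH, chr15:40953221-40953470 (plus strand) for CHAC1 and chr1:93909431-93909680 (minus strand) for GCLM.
CTH: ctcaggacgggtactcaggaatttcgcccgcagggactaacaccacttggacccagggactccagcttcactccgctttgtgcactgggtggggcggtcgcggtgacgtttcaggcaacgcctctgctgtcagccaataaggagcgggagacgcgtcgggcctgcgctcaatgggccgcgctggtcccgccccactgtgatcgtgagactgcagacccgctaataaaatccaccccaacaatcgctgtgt
CHAC1: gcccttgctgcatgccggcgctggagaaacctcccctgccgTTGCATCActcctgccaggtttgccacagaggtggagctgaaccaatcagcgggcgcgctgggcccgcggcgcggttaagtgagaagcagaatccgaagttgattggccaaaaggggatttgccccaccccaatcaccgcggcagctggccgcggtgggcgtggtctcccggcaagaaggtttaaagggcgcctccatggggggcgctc
GCLM: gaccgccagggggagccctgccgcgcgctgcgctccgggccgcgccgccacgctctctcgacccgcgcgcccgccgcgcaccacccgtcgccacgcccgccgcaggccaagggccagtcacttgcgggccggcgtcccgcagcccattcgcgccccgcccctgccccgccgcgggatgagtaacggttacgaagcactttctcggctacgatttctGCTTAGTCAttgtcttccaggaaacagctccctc
3 motifs were searched on both strands. The C/EBP-ATF composite element, TGATGNAA, was in 3.14% of 35116 windows of the same length and in the CHAC1 window, as TTGCATCA on the opposite strand, 209 to 202 bases upstream. The core of the antioxidant response element, TGACNNNGC, was in 10.9% of windows. It was in the GCLM window as GCTTAGTCA, 34 to 26 bases upstream, and in a CBS window as GCGCGGTCA, 83 to 75 bases upstream, both on the opposite strand. The cyclic AMP response element, TGACGTCA, was in 1.65% of windows and in none of these genes' windows. The CTH window held none of the 3 sets of letters. These are matches of letters and not measured sites, and the deposited Du145 table starts these genes elsewhere: RefSeq's start lies 50, 509 and 26 bases downstream of it for CTH, CHAC1 and GCLM.

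Among the transsulfuration genes, CTH (cystathionine gamma-lyase, ENSG00000116761, hg38 chr1:70411218-70439851, plus strand) was 8.73-fold higher with palbociclib in libraries labelled C42 and 2.44-fold lower in Du145. Its levels in libraries labelled C42 were 81.7, 80.5 and 83.8 CPM in palbociclib replicates 1 to 3, against 10.6 and 7.3 CPM in DMSO replicates 1 and 2. In Du145 the palbociclib libraries held 22.8, 22.6 and 21.1 CPM, against 53.1, 57.8 and 53.8 CPM with DMSO. The groups did not overlap in either line, and the order of the treatments was turned around between the lines. The log2 fold change was 3.13 (SE 0.15) in libraries labelled C42, the 10th highest of 11943 genes tested, and -1.28 (SE 0.08) in Du145, or -1.26 without both Du145 libraries numbered 3. The DMSO values in libraries labelled C42 rest on 37 and 22 reads, and leaving out DMSO replicate 1 or 2 gave 3.43 or 2.89. In a bulk library, fewer cells that express a gene and less of its RNA per cell cannot be told apart. The part that the shift in the summed epithelial markers, mostly keratins, had in this result was not tested.

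CBS (cystathionine beta-synthase, ENSG00000160200, hg38 chr21:43053191-43076943, minus strand) followed CTH in direction with more scatter. In libraries labelled C42 it held 37.0, 59.8 and 33.5 CPM with palbociclib and 12.9 and 26.9 CPM with DMSO. In Du145 it held 9.24, 18.0 and 19.3 CPM with palbociclib and 31.8, 29.6 and 39.5 CPM with DMSO. The groups were apart in both lines, although the palbociclib libraries labelled C42 spread from 33.5 to 59.8 CPM, more than the gap to DMSO. The log2 fold changes were 1.08 (SE 0.20) and -1.09 (SE 0.18). The first ranged from 0.61 without DMSO replicate 1 to 1.66 without DMSO replicate 2.

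Part of this scatter sat between CBS and CBSL, a near-identical copy at hg38 chr21:6444869-6468040 on the minus strand, between which reads may be split. CBSL took 27 of the 72 counts of the pair (37.5%) in DMSO replicate 1 of the libraries labelled C42, but 1.22% in DMSO replicate 2 and 3.11% to 4.46% with palbociclib. In Du145 it took 103 of 256 counts (40.2%) in palbociclib replicate 1 and 0.669% to 3.58% in the other 5 libraries. The high shares thus fell in 1 library of each table, and these were the libraries with the lowest CBS level in its group. With the counts of both genes summed, libraries labelled C42 held 38.8, 61.7 and 34.9 CPM with palbociclib and 20.6 and 27.2 CPM with DMSO. The sums in Du145 were 15.5, 18.1 and 19.6 CPM against 33.0, 30.6 and 40.1 CPM. The groups stayed apart, and the log2 fold changes of the sum were 0.85 (SE 0.17) and -0.94 (SE 0.12).

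**Figure D1:**
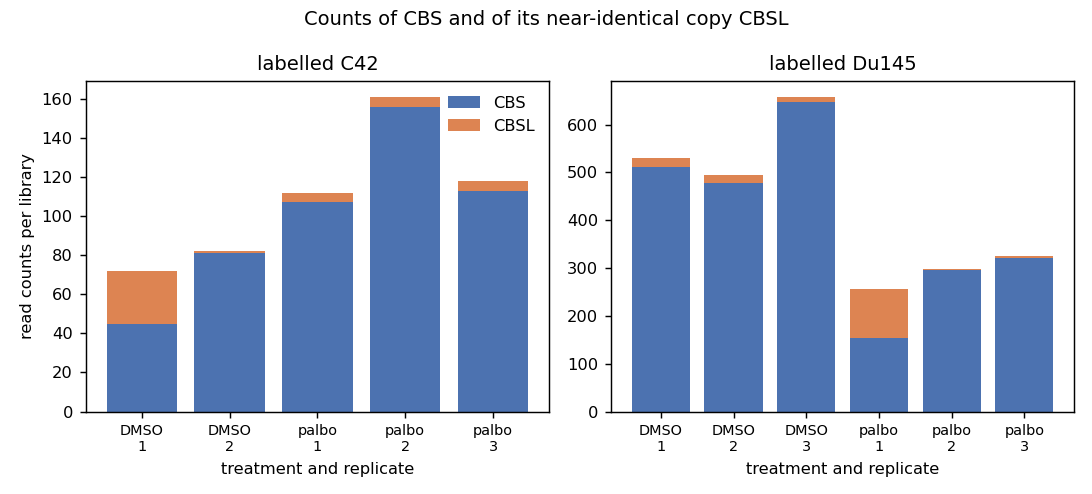
Read counts of CBS (blue) and CBSL (orange), stacked per library (x axis: treatment and replicate; y axis: counts), for libraries labelled C42 (left) and Du145 (right). CBSL takes 37.5% of the pair in DMSO replicate 1 of the libraries labelled C42 and 40.2% in palbociclib replicate 1 of Du145, and at most 4.46% elsewhere.

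Of the 3 genes of glutathione synthesis, those for both subunits of glutamate-cysteine ligase, the rate-limiting enzyme, were higher with palbociclib in libraries labelled C42, and the gene for the last step was lower in both lines. GCLM, the modifier subunit (ENSG00000023909, hg38 chr1:93885205-93909456, minus strand), held 209, 249 and 242 CPM with palbociclib and 120 and 113 CPM with DMSO in libraries labelled C42. In Du145 it held 39.7, 36.9 and 34.6 CPM with palbociclib and 52.5, 53.8 and 46.2 CPM with DMSO. GCLM thus showed the same turn in direction as CTH at a smaller size, with groups apart in both lines, and its log2 fold changes were 0.95 (SE 0.07) and -0.43 (SE 0.08).

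GCLC, the catalytic subunit (ENSG00000001084, hg38 chr6:53497341-53616970, minus strand), held 82.0, 74.0 and 74.9 CPM against 48.4 and 52.1 CPM in libraries labelled C42, a log2 fold change of 0.57 (SE 0.10). In Du145 it held 34.2, 33.5 and 32.6 CPM with palbociclib and 31.1, 31.7 and 27.1 CPM with DMSO. All 3 palbociclib libraries of Du145 lay above the DMSO libraries, but by less than 1 CPM between the nearest pair, and the log2 fold change was 0.18 (SE 0.09). The catalytic and the modifier subunit therefore lay on the same side of DMSO in libraries labelled C42 and on opposite sides in Du145. The Du145 change of GCLC was not called in the main fit, and it was 0.12 without DMSO replicate 3. GSS, glutathione synthetase (ENSG00000100983, hg38 chr20:34928433-34956027, minus strand), held 44.0, 51.4 and 56.8 CPM against 63.0 and 76.6 CPM in libraries labelled C42 and 118, 116 and 121 CPM against 142, 133 and 146 CPM in Du145. It was lower with palbociclib in both, with log2 fold changes of -0.49 (SE 0.11) and -0.22 (SE 0.07).

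The genes that recycle and spend glutathione differed least between treatments. GSR, glutathione reductase, which returns oxidised glutathione to its reduced form (ENSG00000104687, hg38 chr8:30678061-30727999, minus strand), held 92.1, 99.3 and 102 CPM with palbociclib and 75.9 and 77.6 CPM with DMSO in libraries labelled C42. In Du145 the values were 114, 113 and 112 CPM against 111, 104 and 97.4 CPM. The palbociclib libraries were the higher ones in both lines, and the log2 fold changes were 0.31 (SE 0.08) and 0.14 (SE 0.07).

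GPX1, the abundant cytosolic glutathione peroxidase (ENSG00000233276, hg38 chr3:49357171-49358600, minus strand), is given as a polymorphic pseudogene in the deposited Du145 table. It held 115 to 119 CPM with palbociclib and 120 and 129 CPM with DMSO in libraries labelled C42, so the groups were just apart, with a log2 fold change of -0.15 (SE 0.07). In Du145 the groups overlapped, at 556 to 688 CPM against 560 to 628 CPM (log2 fold change 0.10, SE 0.08). GPX4, the peroxidase that reduces lipid hydroperoxides and holds back ferroptosis (ENSG00000167468, hg38 chr19:1103926-1106791, plus strand), overlapped between treatments in both lines. It held 160 to 191 CPM with palbociclib against 167 and 187 CPM with DMSO in libraries labelled C42, and 256 to 294 CPM against 286 to 329 CPM in Du145. Its log2 fold changes were -0.03 (SE 0.06) and -0.16 (SE 0.07).

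Of the 2 genes of glutathione breakdown, CHAC1 turned with the line and GGCT did not. CHAC1, a gamma-glutamylcyclotransferase that splits glutathione (ENSG00000128965, hg38 chr15:40952962-40956519, plus strand), held 51.6, 47.1 and 45.3 CPM with palbociclib and 11.2 and 10.6 CPM with DMSO in libraries labelled C42. In Du145 it held 2.41, 3.15 and 4.44 CPM with palbociclib and 19.6, 18.3 and 18.9 CPM with DMSO. The groups were far apart in both lines, with a 4.24-fold higher level in libraries labelled C42 (log2 fold change 2.08, SE 0.15) and a 5.57-fold lower level in Du145 (log2 fold change -2.48, SE 0.16). The Du145 palbociclib values rest on 40, 52 and 74 reads, and without both Du145 libraries numbered 3 the log2 fold change was -2.74.

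GGCT, the cyclotransferase that acts on gamma-glutamyl dipeptides rather than on glutathione (ENSG00000006625, hg38 chr7:30496621-30504844, minus strand), was lower with palbociclib in both lines. It held 14.5, 13.8 and 15.7 CPM against 27.2 and 21.2 CPM in libraries labelled C42, and 26.8, 26.1 and 27.9 CPM against 44.6, 41.1 and 40.5 CPM in Du145. The groups did not overlap in either line, and the log2 fold changes were -0.77 (SE 0.17) and -0.62 (SE 0.08).

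**Figure D2:**
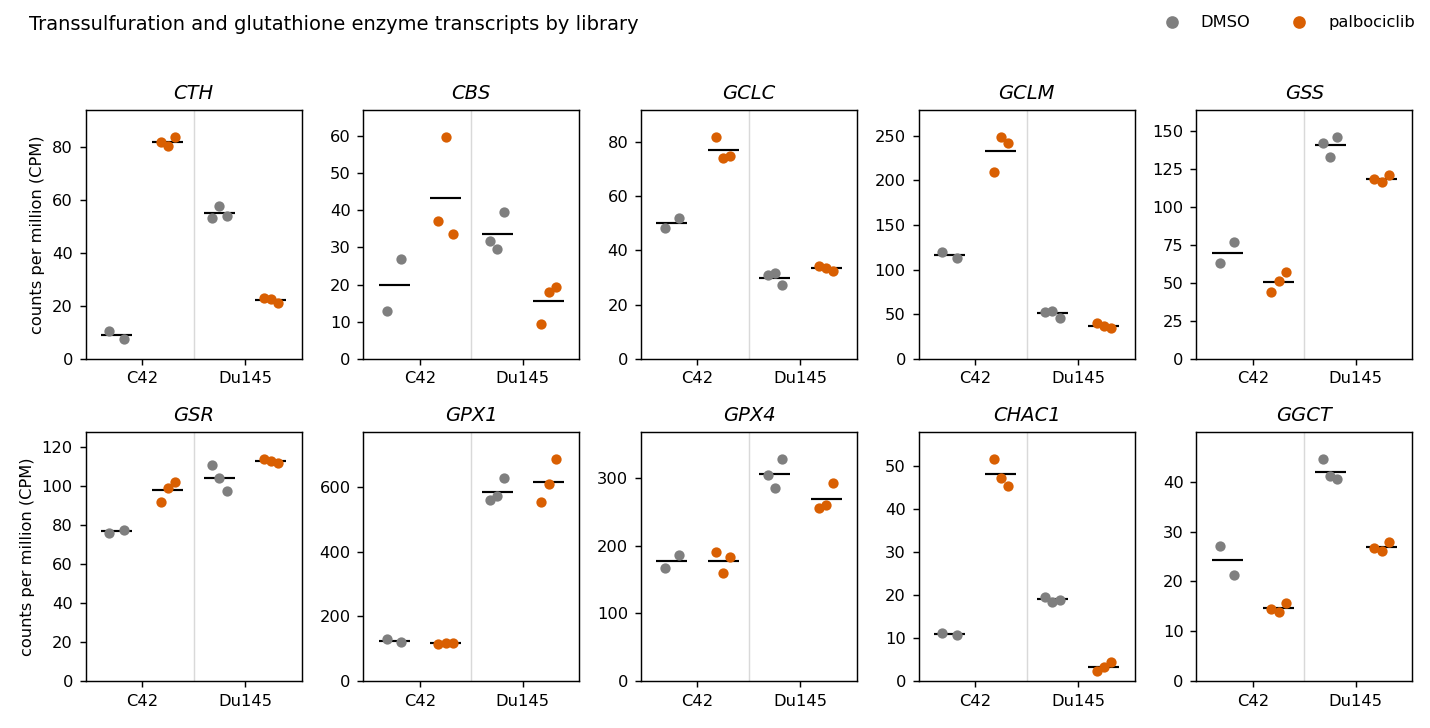
Level of each of the 10 genes (y axis: CPM, from 0) in every library, by line (x axis) and treatment (grey: DMSO, orange: palbociclib); points are libraries and horizontal lines group means. CTH, CBS, GCLM and CHAC1 lie higher with palbociclib in libraries labelled C42 and lower in Du145, whereas GSS and GGCT lie lower in both and GPX4 overlaps in both.

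Counted over the 10 genes, 6 were called higher and 2 lower in libraries labelled C42 (adjusted p at 0.05 over all genes), where 51.8% of all genes tested were called, 25.2% higher and 26.6% lower. In Du145 0 were called higher and 6 lower, where 58.1% of all genes were called, 28.8% higher and 29.2% lower, and without both libraries numbered 3 it was 7 lower. By overlap of the groups alone, 6 were higher and 3 lower in libraries labelled C42, where the groups of 66.1% of all genes lay apart, 35.8% upward and 30.3% downward. In Du145 2 were higher and 6 lower, where 62.7% of all genes lay apart, 29.4% upward and 33.4% downward. CTH, CBS, GCLM and CHAC1 were called higher in libraries labelled C42 and lower in Du145, and 7.43% of the 11007 genes tested in both lines were. By overlap of the groups the same 4 lay above DMSO in the first and below it in the second, as did 11.6% of those genes. GSS and GGCT were called lower in both, as were 8.67% of genes. Nothing is read from these counts, since the genes were picked on this contrast. The median log2 fold change of the 10 was 0.44 in libraries labelled C42 and -0.32 in Du145, beside 0.00 and -0.01 for all genes tested.

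The Du145 log2 fold change minus that of the libraries labelled C42, taken from the joint fit and given without a test, was -4.53 (SE 0.24) for CHAC1 and -4.38 (SE 0.18) for CTH. Without both Du145 libraries numbered 3 these were -4.83 and -4.40. It was -2.15 (SE 0.34) for CBS, or -1.76 with CBS and CBSL summed, and -1.35 (SE 0.12) for GCLM. The other 6 genes lay between -0.35 for GCLC and 0.31 for GSS. The 4 genes that turned with the line lay lowest, which their opposite directions in the 2 lines largely fix in advance.

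**Figure D3:**
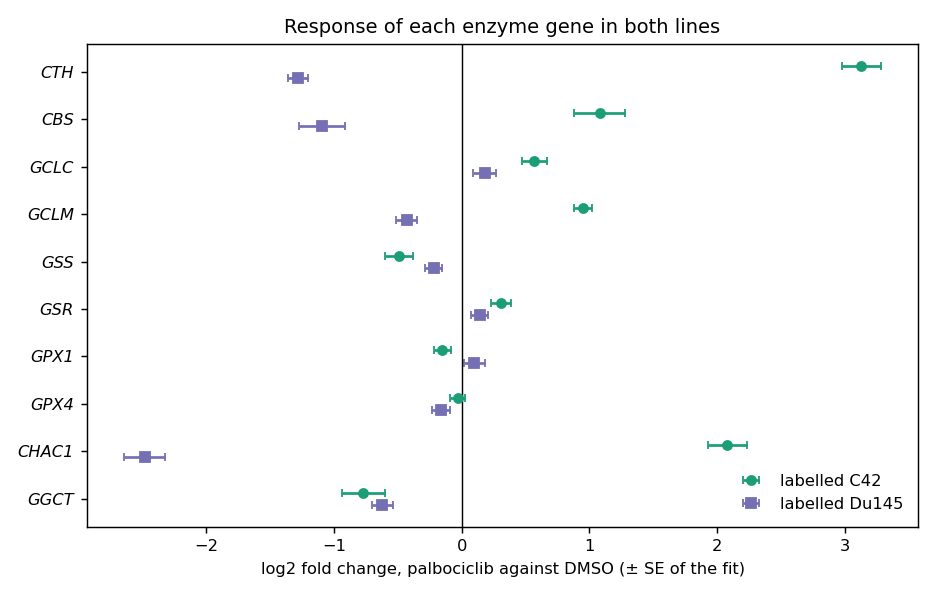
Log2 fold change of palbociclib against DMSO (x axis) for each of the 10 genes (y axis) in libraries labelled C42 (circles) and in Du145 (squares); bars are the standard error of the fit. CTH and CHAC1 lie farthest apart between the lines, and the pairs of GSR, GPX1, GPX4, GSS and GGCT lie close together.

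Levels were compared between genes only per kilobase, with the gene lengths of the deposited Du145 table used for both tables. The tables were counted separately, so levels are not compared between the lines. In DMSO libraries labelled C42 the order ran from GPX4 and GPX1, at 87.8 and 87.2 CPM per kb, through GCLM (21.5), GSR (20.4), GGCT (15.2), GSS (11.3), GCLC (5.81) and CHAC1 (5.29) to CTH (3.71) and CBS (2.93). GPX4 overlapped GPX1, and CTH overlapped CBS. With palbociclib CTH stood at place 4 instead of 9, at 34.0 CPM per kb, below GPX4 (88.0), GPX1 (81.5) and GCLM (43.1). GSR (26.0) and CHAC1 (23.3) came next and overlapped each other. GGCT (9.19), GCLC (8.90), GSS (8.21) and CBS (6.40) followed, and each of these overlapped the next. In Du145 with DMSO, GPX1 led at 410 CPM per kb, followed by GPX4 (152), GSR (27.7), GGCT (26.3), CTH (22.7), GSS (22.7), GCLM (9.37), CHAC1 (9.21), CBS (4.96) and GCLC (3.47). GSR overlapped GGCT, CTH overlapped GSS and GCLM overlapped CHAC1. With palbociclib CHAC1 was the lowest of the 10, at 1.62 CPM per kb, and overlapped CBS (2.28), while CTH stood at place 6 with 9.18 CPM per kb.

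The genes most like CTH were sought among 9526 genes by the distance between the pairs of log2 fold changes (libraries labelled C42, Du145), over 11 libraries. Nearest to CTH were ASNS, asparagine synthetase (2.58 and -1.34, distance 0.554), and SLC7A11, the cystine carrier of system xc- (2.57 and -1.5, distance 0.597). NBR2, ALDH1L2 and SMOC1 followed at distances of 0.987, 1.09 and 1.14. Nearest to CHAC1 were ADM2, the hormone adrenomedullin 2 (1.93 and -1.84, distance 0.652), ULBP1, a ligand of the NKG2D receptor (1.79 and -1.70, distance 0.829), NEBL (1.08), SLC7A11 (1.09) and SESN2 (1.11), a leucine sensor of the mTORC1 pathway. SLC7A11 was on both lists. ASNS, NBR2, SMOC1 and NEBL averaged only 5.79 to 7.13 CPM in the libraries labelled C42, where their log2 fold changes had an SE of 0.35 to 0.42.

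The other genes of the pathway were taken from 11 lists with 137 genes, outside the 10 above. Of these, 105 were tested in libraries labelled C42, where 41 rose and 15 fell (edgeR quasi-likelihood test, adjusted p at 0.05), and 114 were tested in Du145, where 24 rose and 60 fell. The share called was 53.3% in the first, beside 51.8% of all genes, and 73.7% in Du145, beside 58.1%. Their median log2 fold changes were 0.18 and -0.20, beside 0.00 and -0.01 for all genes. Of the 103 tested in both lines, 20 (19.4%) rose in libraries labelled C42 and fell in Du145, beside 7.43% of all genes, and 3 (2.91%) did the reverse, beside 8.87%. The difference between the lines itself passed for 68 of 118 genes, 51 with the lower response in Du145 and 17 with the higher, where 33.4% of all genes passed, 15.0% lower and 18.4% higher. Without both Du145 libraries numbered 3, 86 pathway genes were called in Du145 and the difference passed for 74. The lists were put together with earlier results of these data known, so these counts, and those per list below, are not independent evidence of a direction. The counts per list stand beside 25.2% of all genes called higher and 26.6% lower in libraries labelled C42. In Du145 these shares were 28.8% and 29.2%.

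**Figure D4:**
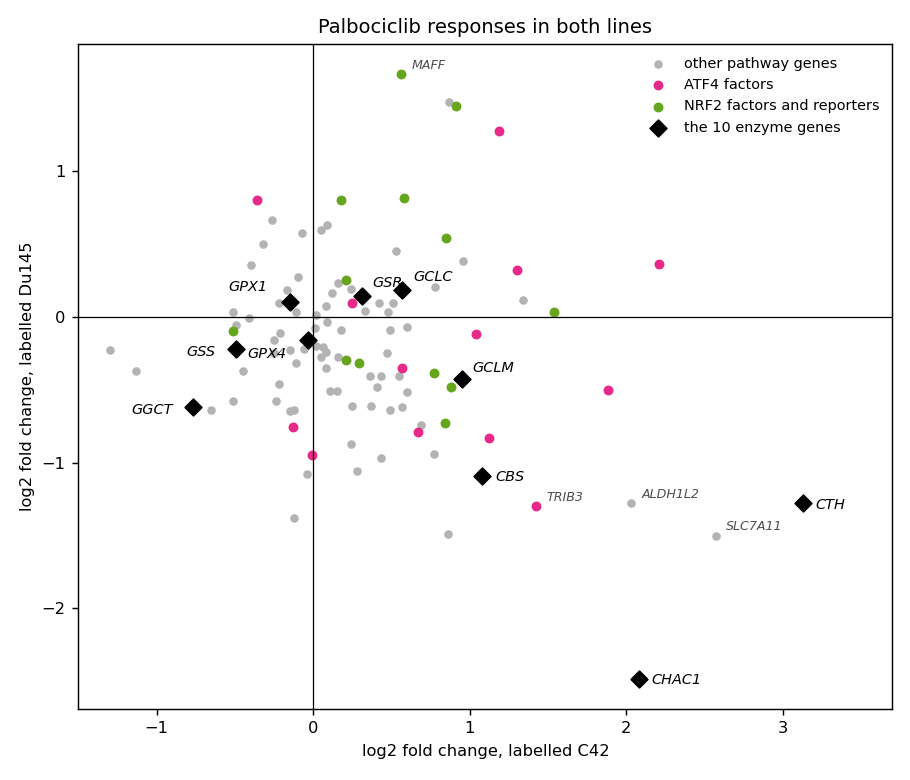
Log2 fold change of palbociclib against DMSO in libraries labelled C42 (x axis) and in Du145 (y axis) for the 10 enzyme genes (black diamonds) and the pathway genes tested in both lines (dots, coloured for the ATF4 and NRF2 lists). CTH, CHAC1, CBS and GCLM lie at the lower right, together with SLC7A11, ALDH1L2 and TRIB3, and MAFF lies at the top.

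Upstream of CBS, the medians of the methionine cycle lay near 0. Of its 9 genes tested in each line, 2 rose and 2 fell in libraries labelled C42 (median log2 fold change 0.01), and 2 rose and 3 fell in Du145 (median -0.07). AHCY, which makes the homocysteine that CBS uses, fell in both, by 0.65 on the log2 scale (adjusted p = 3.73e-10) in libraries labelled C42 and by 0.64 (adjusted p = 2.14e-07) in Du145. MAT2A, the S-adenosylmethionine synthetase of most tissues, gave 0.01 (adjusted p = 0.925) and -0.08 (adjusted p = 0.302).

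Among genes that use cysteine or oxidise sulfide, 3 of 10 rose and 1 fell in libraries labelled C42, and 1 of 11 rose and 5 fell in Du145. TST, the mitochondrial rhodanese, rose by 0.78 (adjusted p = 0.000121) in libraries labelled C42 and gave 0.20 (adjusted p = 0.0732) in Du145. GOT2, the mitochondrial aspartate aminotransferase, fell by 0.49 (adjusted p = 5.34e-09) in libraries labelled C42. In Du145 SUOX, sulfite oxidase, fell by 0.58 (adjusted p = 0.000146), and KYAT1, a cysteine conjugate beta-lyase, rose by 0.24 (adjusted p = 0.0261), a call that was lost in 3 of the alternative fits.

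In the transport list, SLC7A11, which imports the cystine that spares transsulfuration, held 1220 to 1280 CPM with palbociclib and 203 to 204 CPM with DMSO in libraries labelled C42, and 28.4 to 36.9 CPM against 81.9 to 101 CPM in Du145. It rose by 2.57 (SE 0.04, adjusted p = 1.13e-38) and fell by 1.5 (SE 0.10, adjusted p = 7.6e-10), and the difference between the lines was -4.04 (SE 0.12, adjusted p = 9.18e-22). In the whole list 6 of 13 rose and 1 fell in libraries labelled C42 (median 0.28), and 4 rose and 7 fell in Du145 (median -0.20). CTNS, the lysosomal cystine exporter, rose in both lines, by 0.87 (adjusted p = 3.43e-05) and 1.47 (adjusted p = 3.79e-10). SLC25A39, the mitochondrial glutathione carrier, fell by 0.17 in libraries labelled C42 (adjusted p = 0.0378) and rose by 0.18 in Du145 (adjusted p = 0.0285), and these calls were lost in 8 and 3 of the alternative fits.

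Of the breakdown genes other than CHAC1 and GGCT, only CHAC2, ANPEP, LAP3 and CNDP2 were tested in both lines. Of these, 0 were called higher in libraries labelled C42 and lower in Du145, beside 7.43% of all genes. Nothing can be read from so few genes. Of 5 tested in libraries labelled C42, 1 rose and 1 fell, and of 6 in Du145, 2 rose and 4 fell. CHAC2, the constitutive relative of CHAC1, gave -0.07 (adjusted p = 0.883) and rose by 0.57 in Du145 (adjusted p = 0.00196). GGT1, the cell surface gamma-glutamyltransferase, and OPLAH, which opens the 5-oxoproline that CHAC1 and GGCT release, were too low to test in libraries labelled C42, at up to 1.78 and 3.11 CPM. In Du145 they fell by 0.54 (adjusted p = 7.69e-05) and 0.77 (adjusted p = 5.74e-05). OPLAH held 2.3 to 3.11 CPM with palbociclib against 0.86 to 1.99 CPM with DMSO in libraries labelled C42, so it lay higher there on few reads. Of the peptidases that finish the breakdown, LAP3 fell by 1.08 in Du145 (adjusted p = 7.77e-08), ANPEP fell by 0.15 in libraries labelled C42 (adjusted p = 0.0315, lost in 6 of the alternative fits) and by 0.65 in Du145 (adjusted p = 2.59e-05), and CNDP2 rose by 0.16 (adjusted p = 0.00826, lost in 2) and 0.23 (adjusted p = 0.0114, lost in 1).

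Of the 2 further peroxidases tested beside GPX1 and GPX4, GPX8, of the endoplasmic reticulum, rose by 0.37 (adjusted p = 0.00048) in libraries labelled C42 and fell by 0.61 (adjusted p = 1.11e-05) in Du145. PRDX6, a peroxiredoxin that uses glutathione, fell by 0.12 (adjusted p = 0.0466, lost in 8 of the alternative fits) and by 0.64 (adjusted p = 3.51e-07). Of the glutathione S-transferases, 2 of 10 rose and 1 fell in libraries labelled C42, and 1 of 15 rose and 5 fell in Du145. MGST3 rose by 0.49 in libraries labelled C42 (adjusted p = 0.000588), and GSTO1 rose by 0.63 in Du145 (adjusted p = 7.99e-07). GSTP1 fell by 0.25 (adjusted p = 0.0404, lost in 9 of the alternative fits) and 0.16 (adjusted p = 0.0343, lost in 3), and GSTT2B, which has a near-identical copy in GSTT2, fell by 0.94 in Du145 (adjusted p = 0.000103). Among the 7 glutaredoxins and glyoxalases, 1 rose and 1 fell in libraries labelled C42 and 3 rose and 2 fell in Du145.

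In that last list GLO1, which clears methylglyoxal with glutathione as cofactor, fell by 0.40 in libraries labelled C42 (adjusted p = 1.41e-08) and rose by 0.35 in Du145 (adjusted p = 0.000349), the reverse of CTH. GLRX3 rose by 0.59 in Du145 (adjusted p = 2.22e-06), GLRX2 rose by 0.51 in libraries labelled C42 (adjusted p = 0.012, lost in 3 of the alternative fits), and GLRX fell by 0.25 in Du145 (adjusted p = 0.0335, lost in 5). Selenoprotein synthesis, on which GPX1 and GPX4 depend for their selenocysteine, had 1 of 8 genes higher and 2 lower in libraries labelled C42 and 1 of 9 higher and 6 lower in Du145 (median -0.46). SECISBP2, which binds the selenocysteine insertion element, rose by 0.49 (adjusted p = 0.00449, lost in 2 of the alternative fits) and fell by 0.64 (adjusted p = 5.49e-06). SEPHS1 fell in both, by 0.45 (adjusted p = 5.2e-05) and 0.37 (adjusted p = 0.000192), SEPSECS fell by 0.97 in Du145 (adjusted p = 1.81e-06), and TRNAU1AP fell by 0.32 in libraries labelled C42 (adjusted p = 0.0269, lost in 6) and rose by 0.50 in Du145 (adjusted p = 0.000131).

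GSR needs NADPH to recycle glutathione. Of 16 genes of NADPH supply tested in Du145, 14 fell and 0 rose (median -0.39), where 29.2% of all genes fell and 28.8% rose. In libraries labelled C42 5 of 15 rose and 4 fell (median 0.06), where 25.2% of all genes rose and 26.6% fell. ALDH1L2, a mitochondrial folate enzyme that forms NADPH, rose by 2.03 (adjusted p = 6.49e-17) and fell by 1.28 (adjusted p = 3.59e-09). IDH1, cytosolic isocitrate dehydrogenase, rose by 0.86 (adjusted p = 1.66e-16) and fell by 1.49 (adjusted p = 1.04e-10). MTHFD1, of cytosolic folate metabolism, fell in both, by 1.30 (adjusted p = 2.29e-19) and 0.23 (adjusted p = 0.00445).

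ATF4 and the factors around it, of which several are known regulators or targets alongside CHAC1 and CTH, rose in 9 of 13 cases and fell in 0 in libraries labelled C42 (median 1.04), and rose in 4 and fell in 7 in Du145 (median -0.35). The difference between the lines passed for 11 of the 13, of which 10 were lower in Du145 (median -0.95). ATF4 itself held 416 to 457 CPM with palbociclib against 283 CPM in both DMSO libraries labelled C42, and 280 to 294 CPM against 367 to 377 CPM in Du145. It rose by 0.57 (adjusted p = 3.79e-14) and fell by 0.35 (adjusted p = 5.82e-05). TRIB3, a pseudokinase induced by ATF4, rose by 1.42 (adjusted p = 4.47e-22) and fell by 1.30 (adjusted p = 4.35e-10). Not all of the list turned: NUPR1 rose in both, by 2.21 (adjusted p = 8.28e-16) and 0.36 (adjusted p = 0.000366), and so did PPP1R15A, the phosphatase subunit that restores translation, by 1.19 (adjusted p = 8.19e-14) and 1.27 (adjusted p = 3.63e-10).

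The NRF2 list, whose targets include GCLM and GCLC, rose in 10 of 13 cases and fell in 1 in libraries labelled C42 (median 0.58), and rose in 6 and fell in 5 in Du145 (median 0.03). NFE2L2, the gene of NRF2, rose by 0.21 (adjusted p = 0.0123, lost in 3 of the alternative fits) and 0.25 (adjusted p = 0.00691). KEAP1, its inhibitor, fell by 0.51 in libraries labelled C42 (adjusted p = 3.22e-05) and gave -0.10 in Du145 (adjusted p = 0.34). SRXN1, sulfiredoxin, rose by 1.54 in libraries labelled C42 (adjusted p = 3.42e-07) and gave 0.03 in Du145 (adjusted p = 0.886). PIR rose by 0.84 (adjusted p = 5.56e-05) and fell by 0.73 (adjusted p = 3.54e-07), as GCLM did in direction, and MAFF rose by 1.66 in Du145 (adjusted p = 6.6e-10).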

How the data were processed

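RNA was measured in 12 labelled libraries, 3 per line and treatment, made with a directional kit per the labels' protocols. The authors deposited raw counts per gene, in a separate table for each line. The C42 table came from featureCounts 2.0.1, per the file headers, run on read pairs and exons of Ensembl 107 without a strand setting, so overlapping antisense genes cannot be told apart there. How the deposited Du145 table was aligned and counted, and whether by strand, is not stated in the sources used here. Per the submitters' processing notes the build was hg38.

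CPM used library totals. A library's 0 allows up to 0.8597 to 1.1499 CPM (C42) or 0.1799 to 0.1862 CPM (Du145), taking 3 counts as the limit, for counting error only. Each line was fitted alone with edgeR 4.0.16 (R 4.3.3; filterByExpr, TMM, quasi-likelihood F test, Benjamini-Hochberg over all genes at 0.05). A joint fit of line, treatment and interaction gave the difference between lines. SE is the log2 fold change over the root of its F, and none is given for genes near 0. The scripts were tested on simulated counts. Symbols were matched by identifier for 61757 of 61860 genes (C42) and 56668 of 57167 (Du145).

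The 10 genes and the lists were chosen with earlier results of these data known. Named beside the 10 genes were SLC7A11, MAT2A, AHCY, CHAC2, GGT1, OPLAH, ATF4, NFE2L2 and CBSL. Per list and line the called genes with the largest rise and fall at a mean of at least 5 CPM were named too, as were the 5 genes nearest to CTH and to CHAC1 at that mean in both lines. The values of 1 gene named by this rule are not reported here. Alternatives were RLE size factors, library totals, no filter, a mean of at least 5 CPM, DESeq2 1.42.0, the replicate block, leaving out each library and leaving out both Du145 libraries numbered 3. Summing CBS with CBSL was chosen after seeing the data.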

Additional observations from a re-analysis of the deposited data

Results flagged for a closer look

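For 4 of the 10 enzyme genes, every palbociclib library lay above every DMSO library in those labelled C42 and below every one in Du145, as did those of 11.6% of the 11007 genes tested in both lines. The Du145 log2 fold change minus that of the libraries labelled C42 was -4.38 for CTH, -2.15 for CBS (-1.76 summed with CBSL), -1.35 for GCLM and -4.53 for CHAC1. This difference was not tested, since the genes were picked on this contrast.

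Among the other pathway genes named above, the difference of the response between lines passed the interaction test of edgeR (adjusted p at 0.05) for the genes below, each given as the Du145 log2 fold change minus the other. Over all genes tested, 33.4% passed. Apart from those always named, these genes were named for the largest called rise or fall of a list in 1 line. That choice favours passing and large sizes, so these passes are not independent evidence. Below 0 on transport and supply were SLC7A11 (-4.04), ALDH1L2 (-3.28) and IDH1 (-2.31). Among stress and antioxidant regulators the lower responses in Du145 were those of TRIB3 (-2.68), NUPR1 (-1.82), ATF4 (-0.89), PIR (-1.54) and SRXN1 (-1.48). Selenoprotein synthesis added SEPSECS (-1.37) and SECISBP2 (-1.10). Peptidases and peroxidases added LAP3 (-1.01), ANPEP (-0.46), GPX8 (-0.95) and PRDX6 (-0.48). OPLAH (-1.59), which was too low to test alone in libraries labelled C42, passed as lower too. The remaining lower ones were GLRX (-0.69), MGST3 (-0.55) and TST (-0.54).

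Higher responses in Du145 were found for MAFF (1.13), MTHFD1 (1.11), TRNAU1AP (0.86), GLO1 (0.79) and CTNS (0.64). GSTO1 (0.58), GLRX3 (0.58), GOT2 (0.47), KEAP1 (0.45) and SLC25A39 (0.39) followed at smaller sizes. Of these differences, those of TST, CTNS, OPLAH, GLRX and KEAP1 lost their call in 6, 4, 4, 3 and 3 of the alternative fits, and those of MAFF and MGST3 in 1 each.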

How the results depend on the processing

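No called change of the 10 enzyme genes or of the other named genes turned its sign under any alternative run. Some uncalled values near 0 did. The difference between lines of GGCT went from 0.19 to -0.02 without DMSO replicate 1 of the libraries labelled C42. Leaving out each library in turn, the log2 fold change of GPX4 in libraries labelled C42 ranged from -0.12 to 0.04. Among the other named genes, that of SRXN1 in Du145 ranged from -0.17 to 0.2 and that of LAP3 in libraries labelled C42 from -0.19 to 0.14. Of the counts and of the values for CTH and CHAC1, 229 stayed within the limits set for a change and 5 did not. Leaving out each library in turn, the log2 fold change of CTH in libraries labelled C42 ranged from 2.89 to 3.43, and its difference between lines from -4.70 to -4.14. The ends of both ranges are the fits without a DMSO library labelled C42, which set 1 lone DMSO library, assumed to vary like the others, against 3. Deviations of libraries with the same replicate number correlated weakly, at 0.007 and 0.029 (C42) and at 0.02, 0.036 and 0.128 (Du145). Not every Du145 library correlated best with its own number. The highest value, 0.128, was that of both Du145 libraries numbered 3, and a batch shared by them was not tested. The main fits treat the libraries as unpaired. With the replicate block, 10 of the 10 enzyme genes were called in Du145 (3 higher, 7 lower) in place of 6. In libraries labelled C42 it was 8, as without the block, but there palbociclib replicate 3 had no DMSO library in its block. Leaving out each Du145 library in turn, 5 to 7 enzyme genes were called in Du145. With the block, 52 and 87 pathway genes were called in place of 56 and 84, and 67 in place of 68 for the difference between lines. DESeq2 called 45, 82 and 65 pathway genes. Of the enzyme genes it called 5 higher and 2 lower in libraries labelled C42, and 0 higher and 6 lower in Du145. For single named genes, 86 values lost a call and 12 gained one. The lower depth of those libraries limits what can be seen there: 2 of the genes always named, GGT1 and OPLAH, were below the filter.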
